A study of Laccaria bicolor with 20 samples.

Results

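LbAMT2.3c and LbAMT2.2 are a pair of ammonium transporter genes of the ectomycorrhizal basidiomycete Laccaria bicolor, and their transcripts were followed in free-living mycelium on 7 media. The members are the gene models with JGI protein numbers 313221 (LbAMT2.3c, transcript of 1512 bases) and 331747 (LbAMT2.2, transcript of 1239 bases), 2 of the 23130 gene models listed in each library. Both passed the filter on low counts. In the annotation of the study both carry the ammonia transporter channel (Amt) family. LbAMT2.2 is named Rh-like there, while LbAMT2.3c is called MeaA-like in one place and Rh-like in another.

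Strain S238N was pre-cultured for 2 weeks on agar with modified Melin Norkrans (MMN) medium and kept for 1 week, in the dark at 25 °C, on fresh control or altered medium. Control MMN contained glucose at 0.5%, diammonium phosphate at 1.89 mM and KH2PO4 at 3.67 mM. For −N the ammonium salts were omitted and their phosphate replaced, and for +N an ammonium chloride salt was supplied on top at 25 mM. For −P the phosphate salts were omitted and their ammonium replaced, and for +P 25 mM KH2PO4 was supplied on top. The exchanged salts also changed chloride in +N and −P and potassium in −N, −P and +P, and the part of these ions was not tested. Glucose was 0.02% in −C and 2% in +C. Malt extract at 0.5% and casein hydrolysate at 1% belonged to the MMN recipe and are not listed as changed in any medium, so −N still held organic nitrogen. There were 3 libraries per medium, and 2 in +P, of between 9.47 and 33.1 M reads. The labels describe them as biological replicates.

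Proteins of the AMT/MEP/Rh family move ammonium, or ammonia, across membranes, and fungi usually carry several of them. In Saccharomyces cerevisiae the high-affinity transporter Mep2 also signals ammonium shortage, and genes for high-affinity uptake are commonly repressed when ammonium is plentiful. In Aspergillus nidulans MeaA is a transporter of lower affinity. In ectomycorrhiza the fungal partner takes up soil nitrogen, of which a share reaches the host tree. The function of LbAMT2.3c and LbAMT2.2 as proteins was not measured here.

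LbAMT2.3c rose from −N over control to +N. It was highest in +N, lowest in −N, and its +N libraries stood above those of every other medium. In control libraries 1 to 3 it had 111, 151 and 108 reads, or 6.45, 10.1 and 7.64 CPM (read counts scaled to a library size of 1000000 after TMM normalisation). In +N it had 766, 1978 and 731 reads, or 57.9, 65.4 and 63.5 CPM. The CPM values of +N lay close together although library 2 of +N was the deepest of the series and held more than its neighbours in reads. In −N only 29, 29 and 33 reads were found, or 1.74, 2.2 and 1.70 CPM. Counting error alone amounts to 18.6% of a count of 29, and the SD of the −N values was 14.7% of their mean, so their spread was within it.

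The medium means of LbAMT2.3c were 8.06 ± 1.85 CPM in control (SD, n = 3), 62.3 ± 3.91 CPM in +N (SD, n = 3) and 1.88 ± 0.276 CPM in −N (SD, n = 3). Against control the gene was 7.75-fold higher in +N and 4.31-fold lower in −N, and neither set of libraries overlapped that of control. The log2 fold change in +N was 2.95 ± 0.24 (SE, edgeR quasi-likelihood test, Benjamini-Hochberg adjusted p = 2.61e-09). Of all 14725 genes tested, 14.1% were called higher at an adjusted p under 0.05 in this comparison and 15.7% lower. The fold change of LbAMT2.3c ranked 60 from the top. In −N the log2 fold change was −2.11 ± 0.31 (edgeR, adjusted p = 2.07e-05), rank 70 from the bottom, in a comparison in which 17.0% of genes were called lower and 14.7% higher. Between the extremes of ammonium supply, +N against −N, LbAMT2.3c differed 33.5-fold (log2 fold change 5.06 ± 0.28, edgeR, adjusted p = 3.17e-12). In that comparison 48.8% of genes were called in either direction. The study placed LbAMT2.3c among genes specific to surplus ammonium from these same libraries, so its direction in +N is no independent evidence.

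All −N libraries carry a letter i at the end of their names, the meaning of which is not given, as do control 1 and −P 3. Control 1, at 6.45 CPM, was the lowest control library for LbAMT2.3c, and still stood above the highest −N value of 2.2 CPM. With control 1 as the sole control, an alternative chosen after seeing the data, the log2 fold change in −N was −1.79 (edgeR, adjusted p = 0.00522). The spread in that fit came from the other media, and the single control library was assumed to vary as they do, so its p-value has no replicate of the control behind it. With a term for the letter in the fit over all libraries, estimated from control and −P as the only media with both kinds of name, the change was −2.16 (adjusted p = 0.000244).

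**Figure D1:**
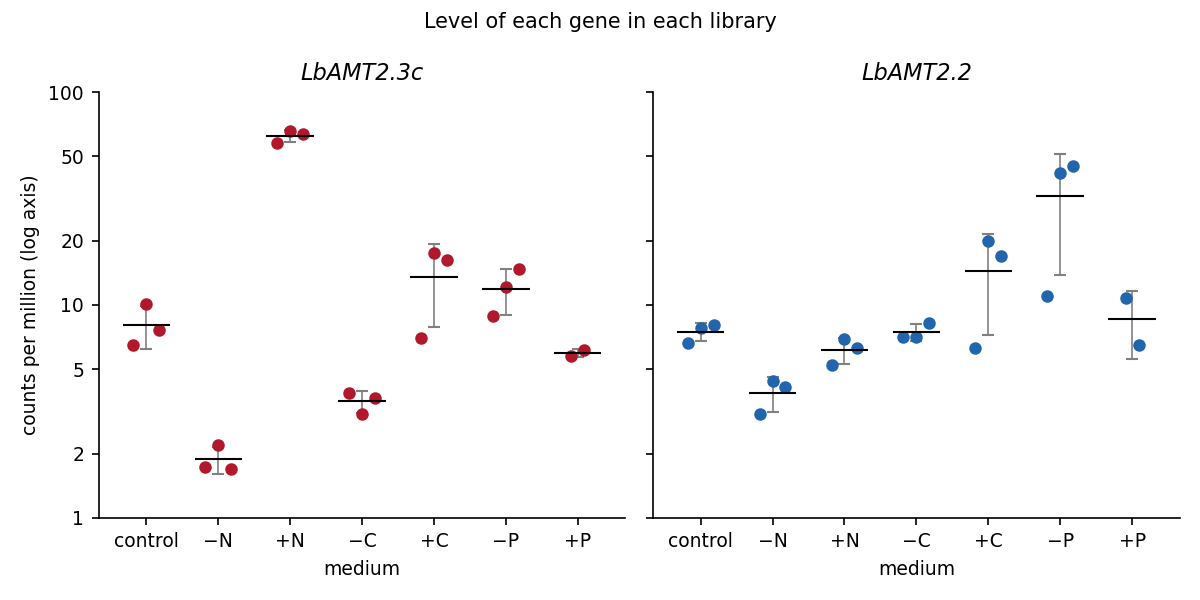
Level of LbAMT2.3c (left) and LbAMT2.2 (right) in each library, in CPM on a log axis, by medium. Points are libraries, black lines are medium means and grey bars are SD (n = 3, n = 2 in +P). LbAMT2.3c lay between 57.9 and 65.4 CPM in +N and at or below 2.2 CPM in −N, and LbAMT2.2 reached 41.7 and 44.7 CPM in −P libraries 2 and 3 but 11 CPM in −P library 1.

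LbAMT2.3c also differed between the glucose media, −C and +C. In −C it had 3.86, 3.07 and 3.64 CPM (68, 85 and 77 reads), all below the lowest control library. It was 2.3-fold lower than in control (log2 fold change −1.20 ± 0.27, edgeR, adjusted p = 0.00115), where 19.4% of genes were called lower and 18.2% higher. With control 1 as the sole control this call was lost (log2 fold change −0.90, adjusted p = 0.0901). In +C it had 7.02, 17.5 and 16.3 CPM (164, 281 and 164 reads). Library 1 of +C lay within the control range and libraries 2 and 3 lay above it, and the comparison with control missed the threshold (log2 fold change 0.72 ± 0.25, edgeR, adjusted p = 0.0709), but not without +C 1 (1.08, adjusted p = 0.000190). Here 4.29% of genes were called higher and 4.75% lower. Between +C and −C the libraries did not overlap, and LbAMT2.3c was 3.80-fold higher in +C (log2 fold change 1.92 ± 0.26, edgeR, adjusted p = 4.31e-06), in a comparison with 36.7% of genes called.

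The media with altered phosphate salts gave smaller differences for LbAMT2.3c. In −P it had 8.84, 12.1 and 14.7 CPM (153, 132 and 201 reads), of which the first lay inside the control range. The log2 fold change of 0.55 ± 0.25 was not called (edgeR, adjusted p = 0.456). In +P both libraries, at 5.75 and 6.13 CPM (67 and 107 reads), were just under the lowest control library, and the log2 fold change of −0.43 ± 0.30 was not called (edgeR, adjusted p = 0.437). Of all genes, 4.23% were called higher and 5.60% lower in +P. The split of these background calls depended on the scaling of libraries. With TMM 46.5% of the calls in −N, 47.4% in +C and 43.1% in +P were higher, and with column totals alone 61.2%, 68.7% and 63.3%. In +P against −P the gene was 1.98-fold lower (log2 fold change −0.98 ± 0.29, edgeR, adjusted p = 0.0360), with 9.64% of genes called, and its libraries did not overlap. This call lay near the threshold and was lost when either +P library was left out (adjusted p = 0.157 and 0.165), when −P 2 or −P 3 was left out (0.0776 and 0.140) and when −N 1 was left out (0.0511).

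LbAMT2.2 was highest in −P and lowest in −N, with medium means between 6.13 and 8.60 CPM in control, −C, +N and +P. It had 114, 117 and 114 reads in control, or 6.63, 7.81 and 8.06 CPM, with a mean of 7.50 ± 0.765 CPM (SD, n = 3). In −P it had 191, 454 and 612 reads, or 11, 41.7 and 44.7 CPM. All −P libraries lay above all control libraries, but library 1 of −P was much closer to control than to libraries 2 and 3. The mean of 32.5 ± 18.6 CPM (SD, n = 3) was 4.30-fold above control (log2 fold change 2.10 ± 0.39, edgeR, adjusted p = 0.0469).

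Few genes passed the test in −P. LbAMT2.2 was one of 14 genes called higher, which is 0.0951% of those tested, and ranked 5 by p and 9 by fold change. The study, which used DESeq2 and also a threshold on the fold change, reported no significant gene for −P against control. The DESeq2 fit made here kept the call of LbAMT2.2, and what made the study's result differ was not tested. No gene was called lower (0%) by edgeR, whereas 727 were lower at an unadjusted p under 0.05 and DESeq2 called 36 lower. The call of LbAMT2.2 lay just under the threshold and was lost in 22 of 32 alternatives. Its log2 fold change stayed between 1.79 and 2.53 in all 32, with adjusted p-values from 5.00e-10 to 0.537. The largest value and the smallest p came from leaving out −P 1 and +C 1. Leaving out a control library in turn gave adjusted p-values of 0.181, 0.259 and 0.140, and leaving out −P 2 or −P 3 gave 0.362 and 0.302. Leaving out any one library of −C, −N or +N, or +C 2 or +C 3, gave values just over the threshold (0.0525 to 0.0801). Leaving out −P 1 alone gave a log2 fold change of 2.53 (adjusted p = 1.54e-05).

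Against +P, the −P level of LbAMT2.2 was 3.81-fold higher (log2 fold change of +P against −P −1.93 ± 0.45, edgeR, adjusted p = 0.00692). In +P it had 10.7 and 6.48 CPM (125 and 113 reads), both under the lowest −P library, and without +P 2 this call was lost (log2 fold change −1.59, adjusted p = 0.134). The +P libraries straddled the control range, with a log2 fold change of 0.17 ± 0.46 against control (edgeR, adjusted p = 0.883).

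In the fit over all 20 libraries, ammonium supply gave no called difference for LbAMT2.2. In −N it had 3.06, 4.40 and 4.12 CPM (51, 58 and 80 reads), all below the control libraries. The log2 fold change of −0.96 ± 0.44 had an unadjusted p of 0.0418 and missed the threshold after adjustment (edgeR, adjusted p = 0.106), though not without −P 1 (adjusted p = 0.0219). In +N, at 5.22, 6.91 and 6.25 CPM (69, 209 and 72 reads), it overlapped control, and the log2 fold change of −0.27 ± 0.42 was not called (edgeR, adjusted p = 0.688). The 95% interval of that change ran from −1.14 to 0.60, and so lies below the whole interval of LbAMT2.3c in the same comparison, 2.46 to 3.45. In +N against −N the log2 fold change was 0.69 ± 0.45 (edgeR, adjusted p = 0.213). Of 32 alternatives, 3 called −N against control and 2 called +N against −N. Among these was the edgeR fit of the compared media alone (−0.94, adjusted p = 0.00101, and 0.68, adjusted p = 0.00678).

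For glucose, LbAMT2.2 had 7.03, 7.07 and 8.26 CPM in −C (124, 196 and 175 reads), which overlapped control (log2 fold change −0.01 ± 0.40, edgeR, adjusted p = 0.994). The 95% interval, −0.84 to 0.83, leaves room for differences of less than 2-fold in either direction. In +C it had 6.29, 20.0 and 16.9 CPM (147, 322 and 170 reads). As for LbAMT2.3c, library 1 of +C was low and libraries 2 and 3 lay above all control libraries. Neither +C against control (log2 fold change 0.91 ± 0.40, edgeR, adjusted p = 0.178) nor +C against −C (0.92 ± 0.39, adjusted p = 0.0681) was called. Both were called without +C 1 (adjusted p = 0.0172 and 0.00462) and without −P 1 (0.0392 and 0.00991).

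Several libraries stood apart from the others of their media over all genes, most of all library 1 of +C and library 1 of −P. A chi-square comparison of read counts, divided by its degrees of freedom, is near 1 for sampling noise alone. It was 27.1 and 20.5 between +C 1 and the other +C libraries, against 1.94 between those. It was 15.6 and 21.3 between −P 1 and the other −P libraries, against 6.15 between those. At lower values, library 3 of −C (9.78 and 12.1, against 2.19) and library 2 of +N (8.27 and 10.5, against 3.75) stood apart as well. Values were as high between all control libraries (10.2, 9.55 and 11.1), where no single library stood apart, and between the +P libraries (13.2). With more reads the same relative difference gives a larger value, and +C 1, −P 1 and +N 2 were the deepest libraries of their media. Both genes had their lowest value of the medium in +C 1 and −P 1. Without −C 3 the log2 fold change of LbAMT2.3c in −C was −1.24 (edgeR, adjusted p = 0.00458), and without +N 2 that in +N was 2.92 (3.96e-08). With +C 1 and −P 1 left out, an alternative chosen after seeing the data, +C against control was called for LbAMT2.3c (log2 fold change 1.08, edgeR, adjusted p = 1.25e-05) and for LbAMT2.2 (1.31, adjusted p = 6.45e-06). In that fit −P against control was also called for both, with log2 fold changes of 0.75 (adjusted p = 0.00271) and 2.53 (5.00e-10). LbAMT2.2 in −N was called too (−0.96, adjusted p = 0.000217). What set these libraries apart was not tested. In such bulk samples, fewer cells expressing a gene and less RNA per cell cannot be told apart.

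**Figure D2:**
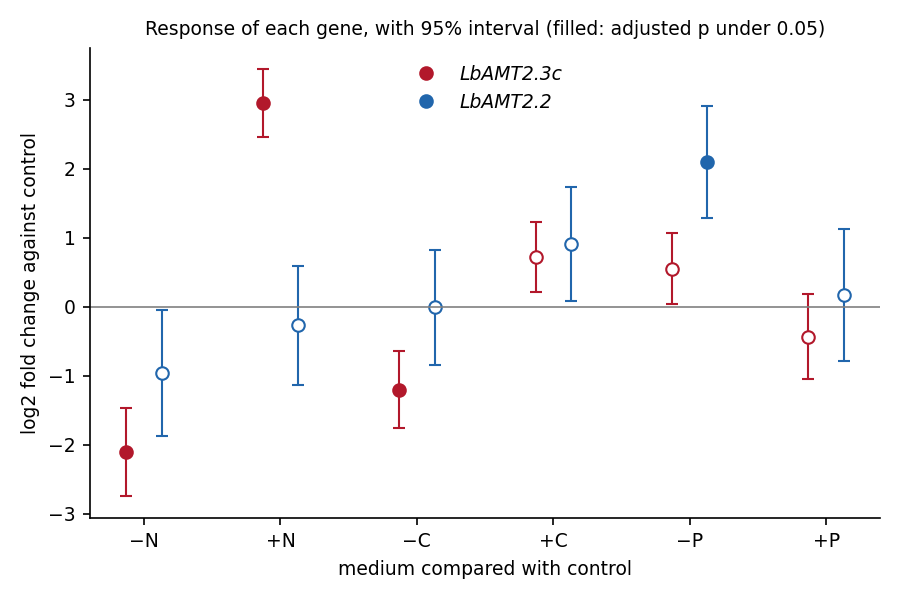
Log2 fold change of LbAMT2.3c (red) and LbAMT2.2 (blue) in each altered medium against control, from the edgeR fit over 20 libraries. Bars are 95% intervals, and filled points had an adjusted p under 0.05, which were +N, −N and −C for LbAMT2.3c and −P for LbAMT2.2.

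Over all 21 pairs of media, LbAMT2.3c was called in 15 and LbAMT2.2 in 8. Among the pairs reported here, the share of all genes called ran from 0% (+P against +C) to 50.9% (−C against +N). The 8 of LbAMT2.2 include −P against control and −P against +C, calls that were lost in 22 and 18 of 32 alternatives. From low to high, the mean level of LbAMT2.3c was 1.88 CPM in −N, 3.52 in −C, 5.94 in +P, 8.06 in control, 11.9 in −P, 13.6 in +C and 62.3 in +N. Of the neighbours in this order, −N and −C differed (log2 fold change 0.91, edgeR, adjusted p = 0.0321, 38.9% of genes called), as did +C and +N (2.23, adjusted p = 8.84e-08, 30.8% called). The steps from −C to +P (adjusted p = 0.0615, 33.1% called), from +P to control, from control to −P, and from −P to +C (adjusted p = 0.745, 10.3% called) were not called. The step from −N to −C was lost in 8 of 32 alternatives, among them those without −C 1 (adjusted p = 0.0875), −C 3 (0.0845), −N 1 (0.103) and −N 3 (0.106). The step from −P to +C was called without +C 1 (adjusted p = 0.0461), and that from −C to +P was called in 8 of 32 alternatives. These were leaving out +C 1 (0.00563), −P 1 (0.0489), +C 2 (0.0481) or both +C 1 and −P 1 (0.00135), the fit with no filter (0.0393), the replicate block (0.0259), the compared media alone (0.00804) and DESeq2 (0.0277).

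The order of LbAMT2.2 was 3.86 CPM in −N, 6.13 in +N, 7.46 in −C, 7.50 in control, 8.60 in +P, 14.4 in +C and 32.5 in −P. Only the top step, from +C to −P, was called among these neighbours (log2 fold change 1.19, edgeR, adjusted p = 0.0422). This call was lost in 18 of 32 alternatives, among them those without −P 2 (adjusted p = 0.177), −P 3 (0.198), +C 1 (0.128) and +C 3 (0.0676). It was also lost, with adjusted p-values of 0.0516 to 0.0559, without any one library of −C or −N and without +N 1 or +N 3. The step from +N to −C was not called (adjusted p = 0.619, 50.9% of genes called), nor was that from +P to +C (adjusted p = 0.698). In +P against +C no gene was called by edgeR (0%), 1243 had an unadjusted p under 0.05 and DESeq2 called 34.

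Scaled by transcript length, the pair stood at similar levels in control. LbAMT2.3c had 5.33 ± 1.22 CPM per kilobase (SD, n = 3) and LbAMT2.2 had 6.05 ± 0.618 CPM per kilobase (SD, n = 3). By this measure the control libraries placed LbAMT2.3c between percentiles 25.0 and 32.5 of the genes tested and LbAMT2.2 between 28.7 and 33.8, so both were modestly expressed. LbAMT2.3c rose to percentiles 74.8 to 77.4 in +N and lay at 6.15 to 8.60 in −N. LbAMT2.2 reached percentiles 71.4 and 73.0 in −P libraries 2 and 3, and 39.1 in library 1.

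The ratio of the genes within a library does not depend on the scaling of libraries. The log2 ratio of LbAMT2.3c to LbAMT2.2, in reads plus 0.5 per kilobase, was −0.33, 0.08 and −0.36 in the control libraries. In +N it was 3.18, 2.95 and 3.05, above all others of the series, so that LbAMT2.3c stood on average 8.33-fold above LbAMT2.2 there. All other media had means below that of control. The mean was −1.31 ± 0.23 in −N, −1.37 ± 0.19 in −C and −1.52 ± 0.80 in −P (SD, n = 3 each), with no overlap with control, which makes LbAMT2.2 the more abundant transcript by 2.47-, 2.58- and 2.87-fold. It was −0.77 ± 0.58 in +P (SD, n = 2) and −0.32 ± 0.18 in +C (SD, n = 3). A permutation test of the ratio over the 7 media, with 100000 resamples of the 20 libraries, gave p = 5e-05 (upper tail of the between-media F, F = 49.2). LbAMT2.3c was chosen with its +N level in these same libraries known. This p-value is therefore no independent evidence for the +N ratio. For single media against control the exact permutation test, two-sided, gave p = 0.1 for −N, +N, −C, −P and +P and p = 0.6 for +C, with 0.1 the smallest value these designs allow. Adjusted over the 6 comparisons these values were 0.12 and 0.6.

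**Figure D3:**
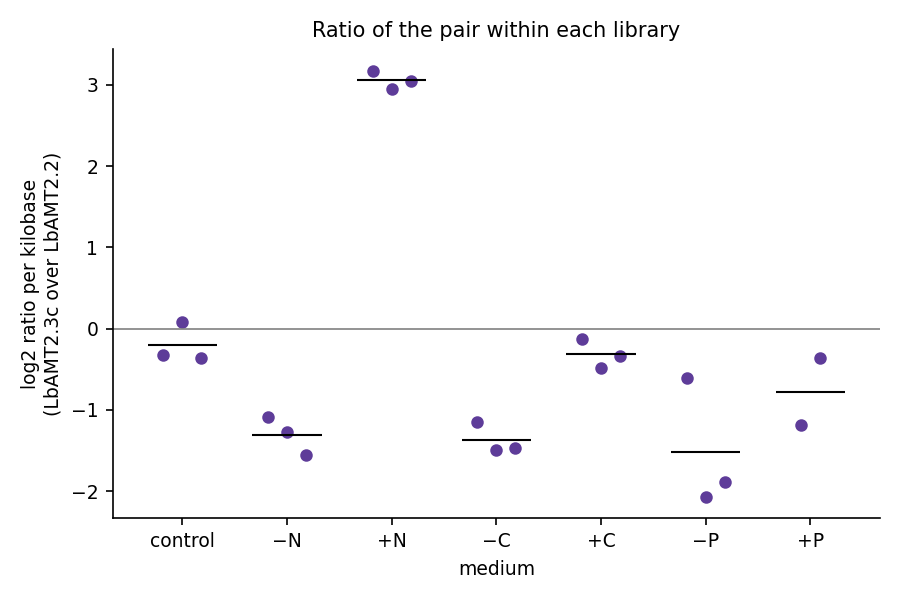
Log2 ratio of LbAMT2.3c to LbAMT2.2 in each library, per kilobase of transcript, by medium. Points are libraries and black lines are medium means, and above 0 LbAMT2.3c is the more abundant transcript, as in all +N libraries (2.95 to 3.18) and in 1 control library (0.08).

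Besides the pair, 5 further ammonium transporter genes were found in the files. They are LbAMT1.1a (JGI-188643), LbAMT1.1b (JGI-255304), LbAMT1.2 (JGI-190906), LbAMT2.1 (JGI-300932) and JGI-484007, which has no symbol and which the study names Rh-like. LbAMT2.3a and LbAMT2.3b, the named relatives of LbAMT2.3c, had no gene model under their protein numbers among those listed, and so could not be analysed. Reads with up to 10 matching positions had been kept, so reads from near-identical copies could have been assigned to more than one of them.

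JGI-484007 moved like LbAMT2.3c at a lower level. It had 40, 22 and 21 reads in control and 240, 417 and 213 in +N, a log2 fold change of 3.23 ± 0.31 (edgeR, adjusted p = 4.89e-08). It fell by 1.59 in −N (adjusted p = 0.00795) and by 2.38 in −C (adjusted p = 0.000249) on the log2 scale, to 7 to 12 and to 6 to 10 reads. The call in −N was lost without control 1 (adjusted p = 0.0510) and after thinning to the smallest library (0.120). In +C it was not called, but was in 3 of 31 alternatives. The number of LbAMT2.3c reads per read of JGI-484007 ranged from 2.75 to 14.2 over the 20 libraries. It was 2.8 to 6.9 in control, 3.19 to 4.74 in +N and 6.80 to 14.2 in −C, where JGI-484007 had only 6 to 10 reads. Whether this ratio differed between media was not tested. The study placed this gene too among those specific to surplus ammonium.

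The most abundant family members went the other way in +N. LbAMT1.1a stood at 978 ± 114 CPM in control and 106 ± 2.53 CPM in +N (SD, n = 3 each), with −3.21 ± 0.11 as log2 fold change (edgeR, adjusted p = 3.01e-15). It was higher in −C (0.48, adjusted p = 0.000452), where LbAMT2.3c was lower. In +C and +P, where LbAMT2.3c was not called, it was lower (−0.83, adjusted p = 5.22e-06, and −0.90, adjusted p = 1.28e-05). Like LbAMT2.3c it was lower in −N (−1.05, adjusted p = 5.91e-08). LbAMT1.2 was opposite to LbAMT2.3c in each of the 3 media in which LbAMT2.3c was called, higher in −N (0.61, adjusted p = 0.000122) and −C (1.20, adjusted p = 8.93e-09) and lower in +N (−1.06, adjusted p = 6.94e-08).

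LbAMT1.1b, with 58 to 65 reads in the control libraries, was higher in +N (0.66, adjusted p = 0.00802) and lower in −N (−0.93, adjusted p = 0.00128), both in the direction of LbAMT2.3c. The call in −N was lost with control 1 as the sole control (−0.75, adjusted p = 0.0877). LbAMT2.1 was not called in any altered medium, with medium means between 25.4 and 28.1 CPM, although without +C 1 and −P 1 it was called in +C (0.29, adjusted p = 0.0468). In −P, the medium in which LbAMT2.2 was highest, 0 of the 5 genes were called by edgeR and 0 by DESeq2, and 1 had an unadjusted p under 0.05. Of these 5 genes, 2 were called higher and 2 lower in +N, 1 higher and 3 lower in −N, 2 higher and 1 lower in −C, and 1 lower each in +C and +P. Over all genes tested the shares higher and lower were 14.1% and 15.7% in +N, 14.7% and 17.0% in −N, 18.2% and 19.4% in −C, 4.29% and 4.75% in +C, and 4.23% and 5.60% in +P, and with 5 genes nothing is read from the counts. LbAMT1.2, which just missed the threshold in +C (−0.32, adjusted p = 0.0561) and +P (−0.37, adjusted p = 0.0538), was called lower there in 11 and 8 of 32 alternatives. The median log2 fold change of the 5 genes was 0.05 in +N and −0.93 in −N, against −0.01 and 0.02 over all genes tested.

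**Figure D4:**
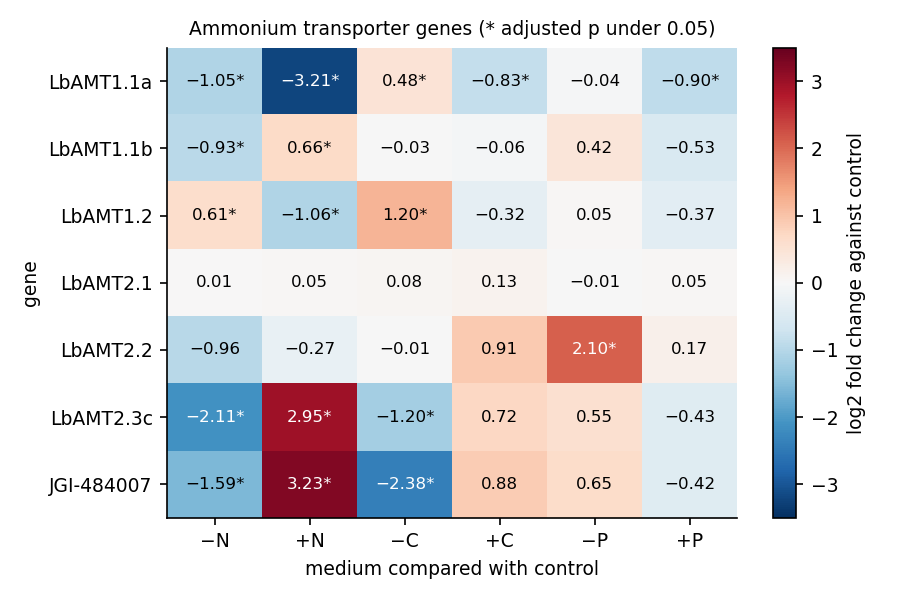
Log2 fold change against control of the 7 ammonium transporter genes (rows) in the 6 altered media (columns), with red for higher, blue for lower and an asterisk for an adjusted p under 0.05. LbAMT2.3c and JGI-484007 were higher in +N (2.95 and 3.23) where LbAMT1.1a and LbAMT1.2 were lower (−3.21 and −1.06), and LbAMT2.2 alone of the 7 was called in −P (2.10).

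The make-up of the family's transcripts differed between media. Summed over the 7 genes, the level per kilobase was 821 ± 91.9 in control, 237 ± 5.38 in +N and 1305 ± 88.6 in −C (CPM per kilobase, SD, n = 3 each). LbAMT2.3c made up 0.654 ± 0.168% of this sum in control, 0.204 ± 0.0250% in −N and 17.4 ± 0.703% in +N (SD, n = 3 each), where it was the third most abundant after LbAMT1.2 (39.4%) and LbAMT1.1a (27.1%). LbAMT2.2 made up 0.739 ± 0.0538% in control and 3.16 ± 1.84% in −P (SD, n = 3 each), or 1.04% in −P library 1 and up to 4.27% in the others. A share moves with the whole sum, and the sum in +N was lower mainly through LbAMT1.1a, whose level per kilobase went from 594 to 64.2.

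**Figure D5:**
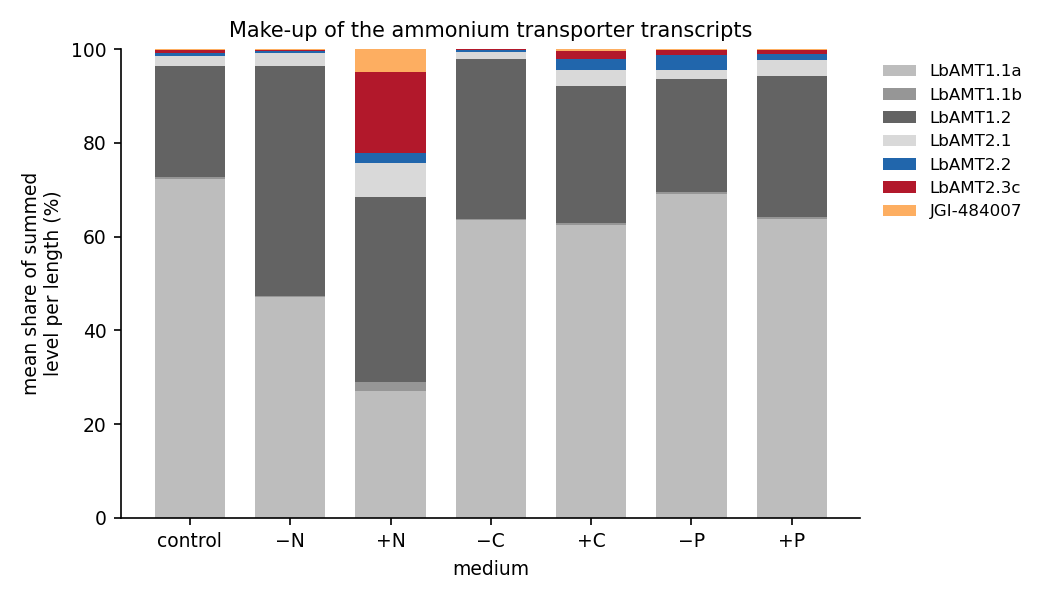
Mean share of each ammonium transporter gene in the summed level per kilobase of the 7 genes, in percent, by medium. LbAMT2.3c (red) took 17.4% of the sum in +N against 0.654% in control, and LbAMT2.2 (blue) took 3.16% in −P against 0.739% in control.

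Other genes of nitrogen supply were taken from annotations of the study, and their values are given beside those of the pair. Some of those annotations were shortened and covered genes chosen for regulation in mycorrhiza or basidiocarps. Counts from these lists are therefore not those of unselected genes. The nitrate transporter LbNrt (JGI-254042), the nitrate reductase JGI-254066 and the nitrite reductase JGI-291348 were all lower in +N, with log2 fold changes of −3.08, −4.02 and −3.14 (edgeR, adjusted p at most 1.96e-10). All 3 were also lower in −N, +C and +P and higher in −C, as LbAMT1.1a was. In −N they fell by 1.13, 1.78 and 1.71 on the log2 scale. LbAMT2.3c was called in the opposite direction in +N and −C and in the same direction in −N.

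Of 7 glutamine synthetase genes, which code for the enzyme that fixes ammonium into glutamine, 6 could be tested. In +N 1 was called higher and 1 lower (over all genes 14.1% and 15.7%), and in −N 2 were lower (over all genes 17.0%), so the +N counts were near the background. JGI-183088 was lower in both, by −1.26 and −0.72, while JGI-684579 was higher in +N (0.25) and lower in −N (−0.47). The GPR1/FUN34/yaaH gene JGI-295502, of a family linked to ammonia export in Saccharomyces cerevisiae, was higher in +N (log2 fold change 1.59 ± 0.29, edgeR, adjusted p = 0.000177), like LbAMT2.3c, and was not called in the other media.

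Among 13 amino acid permeases, 6 were higher and 2 lower in +N, and 1 was higher and 5 lower in −N. Over all genes 14.1% were higher and 15.7% lower in +N, and 14.7% and 17.0% in −N, so that the 2 lower in +N and the 1 higher in −N were no more than the background. JGI-296817 and JGI-254728 were higher in +N (2.46 and 2.45) and lower in −N (−0.64 and −0.76), the same directions as LbAMT2.3c. In −C, where LbAMT2.3c was lower, JGI-254728 had a mean of 10.4 CPM against 3.97 in control. JGI-296817 had 2.68 CPM in −C against 2.82 in control. JGI-300838 was higher in both +N and −N (1.30 and 0.50). Of 7 oligopeptide transporters 1 was higher and 3 lower in +N, and 3 were higher and 2 lower in −N, of which the 1 higher in +N was at the same background share. JGI-301981 and JGI-190652 were higher in −N (2.13 and 1.56), and JGI-250173 was lower in +N (−1.49) and higher in −N (0.38). The median log2 fold change of the permeases was 0.33 in +N and that of the oligopeptide transporters −0.55. In −P 0 of the 30 genes tested from these lists were called by edgeR and 1 by DESeq2, and 9 had an unadjusted p under 0.05.

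The genes whose pattern was most like that of LbAMT2.3c were found by Pearson correlation of log2 CPM (prior count 2) over the 20 libraries and all genes tested. The closest was JGI-654799 (r = 0.97), annotated with ferric-chelate reductase activity, followed by JGI-586633, a transporter of the major facilitator superfamily, and JGI-603166, annotated as a gluconate transport-inducing protein (both r = 0.97). JGI-672091 and JGI-708975 came next (both r = 0.97), and their Coprinopsis cinerea counterparts carry a START-like domain and an aldose 1-epimerase domain. JGI-586633 had 7.05 CPM in control, 74.3 in +N and 2.48 in −N, near the levels of LbAMT2.3c itself, and JGI-654799 had 67.0, 135 and 44.4. JGI-484007 ranked 12 in likeness to LbAMT2.3c (r = 0.95), and LbAMT1.2 was among the least alike (r = −0.83).

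For LbAMT2.2 the likeness was lower. The closest genes were JGI-671915 (r = 0.86), JGI-691231 (0.86), JGI-478048 (0.86), JGI-709124 (0.84) and JGI-189159 (0.83), for which no function is named here. JGI-671915 had 78.5 ± 31.7 CPM in −P and 44.4 ± 5.20 CPM in control (SD, n = 3 each), with its lowest −P library at 43.2 CPM. LbAMT2.3c and LbAMT2.2 were weakly alike across the 20 libraries (Pearson r = 0.32, Spearman rho = 0.39). These are descriptions over libraries that share their media, depth and scaling.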

How the data were processed

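Per the labels and methods, the authors aligned trimmed reads with CLC Genomics Workbench to JGI v2 transcripts, and allowed each read 10 hits at most. Raw counts per gene model, as deposited, were used unchanged, and the deposited RPKM values, scaled by the authors to length and library size, only to obtain transcript lengths. The library kit was stranded, and unique as well as total mapped reads were determined. Which of them the deposited counts hold, and whether strand was used in counting, is not given in the sources used here. No row lacked a gene. Counts were tested with edgeR 4.0.16 (R 4.3.3; quasi-likelihood, TMM, default filter, 14725 genes, all 20 libraries, a mean per medium), with Benjamini-Hochberg adjustment within each comparison and a threshold of 0.05. SE came from the F statistic. DESeq2 1.42.0 was an alternative, as were other scalings and filters, thinning to the smallest library, a replicate block, a term for the letter i, fits of the compared media alone and each library left out. Permutation tests used numpy 2.4.6. Symbols are those of RefSeq (V1.0 assembly, matched by protein number for 6580 models), and as this is not the build of the files no coordinates or sequences are given. Named were the pair, all other ammonium transporter genes, the 5 genes most like each and, per nitrogen list, up to 3 called genes with the largest change in −N or +N. Members and lists were chosen with earlier results of these data known.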

Additional observations from a re-analysis of the deposited data

How the results depend on the processing

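Each of the 18 comparisons of the pair was repeated under 32 alternatives, and 512 of 576 values held both the sign and the call. For LbAMT2.3c, +N and −N against control, +N against −N and +C against −C kept both under all 32, and −C lost its call only with control 1 as the sole control (−0.90), an alternative chosen after seeing the data like leaving out +C 1 and −P 1 together. Fitted log2 fold changes are given throughout.

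With single libraries left out, LbAMT2.3c ranged from 0.46 to 1.08 for +C and from −1.17 to −0.79 for +P against −P. LbAMT2.2 ranged from −1.05 to −0.81 for −N, −0.095 to 0.031 for −C, 0.56 to 1.31 for +C, 1.79 to 2.53 for −P, −0.21 to 0.52 for +P, 0.55 to 1.31 for +C against −C and −2.36 to −1.59 for +P against −P. The F of the ratio ranged from 32.8 to 126.

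LbAMT2.3c in +C was called with no filter (0.74), after thinning to the smallest library (0.81), by DESeq2 (0.75), with the replicate block (0.70) and without +C 1 and −P 1 (1.08), and in −P without those libraries (0.75). Its +P against −P call was lost with upper quartile scaling (−0.93), column totals (−0.90) and the letter term (−0.96). LbAMT2.2 in −P lost its call with upper quartile scaling (2.10), column totals (2.10), at least 10 reads in each library (2.10), the compared media alone (2.10), control 1 alone (2.28) and the replicate block (1.99, adjusted p = 0.0506). With the compared media alone it was called in −N (−0.94) and +N against −N (0.68), and not in +P against −P (−1.92). Without +C 1 and −P 1 it was called in −N (−0.96), +C (1.31), +N against −N (0.69) and +C against −C (1.32), the last also with no filter (0.92). In −C, near 0, its sign turned with upper quartile scaling (0.00042), column totals (0.049), no filter (0.011), the letter term (0.11), thinning (0.045) and control 1 alone (0.15).

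No general pairing by replicate number was seen in the deviations from the medium means. Of 57 same-numbered pairs, 12 correlated over 0.1 (median −0.02, highest 0.30), and the median of differently numbered pairs was 0.03. Of 20 libraries, 7 correlated best with a library of their own number. Whether some libraries shared a batch was not tested.

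Uncalled values near 0 of other transporters also turned sign. These were LbAMT1.1a in −P (0.093 with control 1 alone), LbAMT1.1b in −C (0.030 with column totals, 0.14 with control 1 alone) and in +C (0.022, 0.12, and 0.084 without +C 1 and −P 1), LbAMT2.1 in −N (−0.014 with the letter term, −0.0057 thinned) and in −P (0.045 thinned, 0.021 without +C 1 and −P 1, 0.0057 with control 1 alone). With single libraries left out, LbAMT1.1a in −P ranged over −0.11 to 0.050, LbAMT1.1b in −C over −0.12 to 0.065 and in +C over −0.17 to 0.084, LbAMT1.2 in −P over −0.013 to 0.14, LbAMT2.1 in −N over −0.015 to 0.035, in −P over −0.041 to 0.021 and in +P over −0.11 to 0.21, LbAMT2.3c in −P against +C over −0.52 to 0.096, and the log2 ratio of the pair in +C relative to control over −0.21 to 0.028.

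Among the comparisons of the pair, column totals moved the median of all genes by over 0.1 only in +N against −N (by −0.11), and upper quartile scaling changed the share of higher calls to 59.1% in −N and 55.9% in +P. Counts of genes called moved most in −P, from 14 to 0 with upper quartile scaling, column totals, at least 10 reads, the replicate block or the compared media alone, 63 with no filter, 22 with the letter term, 1 with control 1 alone, 113 by DESeq2, 936 without +C 1 and −P 1, and between 0 and 613 with single libraries left out. With the letter term, −N fell from 4673 to 2884 and +N against −N from 7188 to 4719. With the compared media alone, +C fell from 1332 to 660, +P from 1447 to 964 and +P against −P from 1419 to 562. With control 1 alone, −N had 1891, +N 2341, −C 3424, +C 284 and +P 358, and +C had 2186 without +C 1 and −P 1. Of the 5 genes most like LbAMT2.3c, 1 was among the closest 5 with 7 medium means and 1 with Spearman correlation, and of those of LbAMT2.2, 0 and 2.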
